A study of Mus musculus with 12 samples.

Results

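The 85 RNAs described here are predicted miRNA precursors whose reads mostly carried no recorded difference from the precursor's sequence. They were chosen from small RNA libraries of 12 retinal samples of db/db mice, in which a defect of the leptin receptor leads to obesity and diabetes. By the labels there are 6 model libraries, taken here as db/db mice without the treatment, and 6 libraries of db/db mice given Keluoxin, a Chinese herbal capsule, with no dose, time, age or sex. The strain labels read C57BL/KsJ-db/db for the first sample, and the number before BL then rises by 1 with each sample, up to C68BL/KsJ-db/db, so that only the KsJ-db/db part is common to all 12. No non-diabetic group was analysed here. The labels name the retina as the source but speak of an exosome pellet in the extraction text, and nothing in them ties each sample to an animal of its own. The p-values below therefore measure the spread between samples, part of which may be technical. A precursor became a member if its deposited name marks it as a prediction of the submitters, if it held at least 200 reads over the 12 libraries, and if under 50% of these reads had a mismatch, an insertion or a deletion in their alignment. Of the 1532 precursors in the tables, 997 were annotated and 535 predicted. Among the predicted ones 289 reached 200 reads, and 85 of these were members and 204 were not. Members are numbered P1 to P85 by their pooled reads, because the deposited names of predictions are not printed, and between 80 and 85 of them had reads in each library.

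A miRNA precursor is a short hairpin that is cut by the nuclease Drosha and then by Dicer. The cuts leave a duplex of 2 mature arms, called 5p and 3p, of about the same length, and the seed near the 5′ end of the loaded arm pairs with target messages. Reads of a cut precursor therefore pile up at a sharp 5′ start and within a narrow range of lengths, while fragments of ribosomal, transfer and small nucleolar RNAs, or of repeats, usually start and end at many positions. Length, start and arm balance are described below for what the members' reads look like, and levels are then compared between the groups.

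Markers of the neural retina were present in every library. The summed level of 5 neural retina miRNAs (miR-182-5p, miR-183-5p, miR-96-5p, miR-124-3p and miR-9-5p) lay between 459052 and 538603 CPM (read counts scaled to a common library total) in model and between 270117 and 491878 CPM in Keluoxin libraries. The summed markers of the pigment epithelium (miR-204-5p, miR-211-5p) were at 9269.9 to 12246 CPM over all libraries, miR-122-5p of the liver at 1.17 to 4.98 CPM in model and 2.38 to 41.5 CPM in Keluoxin, and miR-126a-3p of the endothelium at 1420.5 to 1911 and 909.6 to 1232 CPM. Fewer cells of a type and less RNA per cell cannot be told apart in such libraries. Libraries held 1933375 to 7892147 counted reads. The members took 1.39, 2.03 and 3.98% of all counted reads in the model libraries (lowest, median, highest) and 2.97, 4.17 and 5.11% in the Keluoxin libraries, each read counted once. The groups overlapped through model replicate 1, the highest model library. The mean was 2.27% ± 0.953 in model and 4.14% ± 0.912 in Keluoxin (SD, 6 libraries each), given without a test because the members were chosen with these data known. Beside it, the share of annotated precursors' reads that carried a difference was 37.6 to 41.3% in model and 42.2 to 49.1% in Keluoxin libraries. Its part in the members' results was not tested.

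The number of reads was very uneven over the members. P1 held 790180 reads, the 5 largest members held 69.03% and the 20 largest 92.6% of the 2210897 reads on members (a read counted once on each member it matches), and P85 held 203. The sequences below come from the deposited tables and are shown because they say what the largest members and the called families are.

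P1, P2, P12 and P20 shared the 13 bases ggtgctgtaggct, the 3′ end of 5S ribosomal RNA, the small RNA of the large ribosomal subunit. The precursors are printed 5′ to 3′ with the most frequent read in capitals.
P1: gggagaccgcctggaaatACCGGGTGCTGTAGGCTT
P2: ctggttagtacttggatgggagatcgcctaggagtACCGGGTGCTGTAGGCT
P12: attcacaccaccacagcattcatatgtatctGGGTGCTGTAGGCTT
P20: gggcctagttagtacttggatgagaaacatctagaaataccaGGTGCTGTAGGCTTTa
In all 4 the read lay at or within a base of the precursor's 3′ end. P2 lies whole in n-R5s28, a 5S ribosomal RNA gene of GENCODE M21, at chr17:47848901-47848952 on the plus strand of GRCm38. The deposited names place P1 on chromosome 7, P12 on chromosome 14 and P20 on chromosome 16. Of the reads, 70.1 to 88.3% contained these bases. Searched on the given strand, the run was in the sequence of 4 of the 85 members, in 0 of the other 450 predicted and in 0 of the 997 annotated precursors.

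A second family shared aggctaggctc, a run that lies inside miR-690, an annotated miRNA at chr16:28599940-28599961, minus strand (RefSeq, GRCm38.p6). The most frequent reads are shown with bases that hang past the precursor's end in capitals, and RefSeq's mature miR-690 with its seed, bases 2 to 8, in capitals.
P4: gttaaaggctaggctc
P14: AAaggctaggctcacaact
P24: aggctaggctcacaac
P60: aaaggctaggctcat
miR-690: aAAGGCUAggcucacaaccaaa
None of the 4 reads was the whole mature miRNA. The longest run that the leading read shared with miR-690 was 13 nt for P4, 18 nt for P14, 16 nt for P24 and 14 nt for P60. The run was in most reads (74.4 to 95.8%) of P4, P14, P18, P19, P24 and P60. Searched on the given strand, it was in the sequence of 7 members, 0 of the other 450 predicted and 1 of the 997 annotated precursors.

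The third family shared gagagatggc, which belongs to the 5′ part of the B2 repeat, a mobile element with very many copies in the mouse genome that is also found in the miR-3473 group. Leading reads of 5 of its members show how close they are, with bases past the precursor's end in capitals where there are any.
P25: tggagagatggctca
P38: gggctggagagatggct
P40: gggctggagagatggct
P43: tggagagatggctcg
P57: tggagagatggcgca
Most reads of P10, P11, P25, P27, P38, P39, P40, P43, P48 and P57 contained the run (50.3 to 97.99%). It was in the sequence of 11 members, 3 other predicted and 7 annotated precursors. P9 joins both families: 39.6% of its reads held the miR-690 run, on its 3p side, and 42.3% the B2 run, on its 5p side. Both runs lie within the 44 nt of its precursor. The families are named by their runs only, and whether both runs are parts of the same repeat was not tested. P10 and P11 carry the same reads and are counted as 1 arm on each side below.

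The leading reads of a few members matched known mature miRNAs over 14 nt or more. They are shown for comparison with those miRNAs, with the bases that hang past the precursor's end in capitals and RefSeq's mature sequence (seed in capitals) under each.
P3: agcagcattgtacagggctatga
miR-103-3p: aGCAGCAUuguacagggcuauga
P17: tgagaactgaattccatAGGCA
miR-146b-5p: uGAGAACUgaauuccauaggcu
P51: gcactgagatgggagtggTGTAG
miR-674-5p: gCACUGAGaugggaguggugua
P32: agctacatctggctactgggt
miR-222-3p: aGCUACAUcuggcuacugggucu
P49: gatataaccactgccagactga
miR-344d-3p: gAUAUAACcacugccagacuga
P45: tttggcaatggtagg
miR-182-5p: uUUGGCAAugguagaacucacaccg
P3, on chromosome 11, held the reads of miR-103-3p, whose genes lie at chr11:35782447-35782469 and chr2:131288103-131288125 on the plus strand, and 99.995% of its reads also matched an annotated precursor. The leading read of P17 shared 21 nt with miR-146b-5p and that of P51 22 nt with miR-674-5p, and in both the last 5 bases lay past the precursor's end. P32 on chromosome X carried miR-222-3p, of chrX:19146901-19146923, minus strand. P49 and P50 carried miR-344d-3p and lie whole in annotated miRNA genes, Gm23962 at chr7:61681522-61681585 and Gm23490 at chr7:61706598-61706662, both on the minus strand of GRCm38. The leading read of P45 shared 14 nt with miR-182-5p, a miRNA of photoreceptors, and P44 carried reads of a miR-378 precursor.

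The remaining members matched other RNAs. Reads without a difference were matched whole, on the sense strand, to GENCODE M21 transcripts. Each member was classed by where the largest part of them fell. The classes follow the annotation's gene types, so ribosomal or nucleolar sequence under another gene type is counted elsewhere. By this count 18 members matched annotated miRNA genes, 5 mitochondrial transfer RNA, 13 small nuclear or nucleolar RNA, 3 other small RNA, 1 ribosomal RNA (P84, the mitochondrial mt-Rnr2), 21 other transcripts and 24 none. The 18 include members of the miR-690 and B2 families, among them P4, P9, P14, P25 and P40. The 24 without a match include P2, P12 and P20, which hold the 5S run. Of the reads without a difference, 42.1% of P2, 17.8% of P1, 1.12% of P20 and 0.0867% of P12 matched ribosomal RNA genes whole. P1 was classed with other transcripts because 41.98% of such reads matched them, most of all Tmem38b. Nuclear transfer RNAs are not in this annotation. P6 carried reads of mt-Ty, the mitochondrial tyrosine tRNA at chrM:5260-5326, although the precursor itself lies in a non-coding transcript of Cep295 at chr9:15321563-15321608. P15 and P82 carried mt-Ts2, a mitochondrial serine tRNA at chrM:11613-11671, and P36 and P42 carried mt-Tp, the proline tRNA at chrM:15356-15422. P13 lies in the nucleolar RNA gene Gm23736 at chr12:109680802-109680872, P52 in Snora7a at chr6:115807979-115808043 and P33 in Gm22574 at chr13:86044991-86045043, a gene model whose experimental support is still to be tested. P31 carried reads of Snord57 and P62 of Snord7, box C/D nucleolar RNAs.

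Reads without a recorded difference were of 2 kinds. The deposited alignment allows a read to hang up to 5 nt past a precursor's end, and in 100% of the rows with such a read and no recorded difference the part inside the precursor matched exactly, while the hanging bases were not compared. Over the members, 36.3% of the reads lay inside the precursor without a difference, 28.6% hung over an end without a recorded one and 35.1% differed. In the other predicted precursors these shares were 5.75, 3.25 and 90.99%, and in annotated ones 57.6, 0.0159 and 42.4%. The shares of differing reads chose the members and are given as a description. Counting only reads wholly inside the precursor, 30 of the 85 members had over 50% exact reads, and in 36 the hanging reads outnumbered the exact ones.

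**Figure D1:**
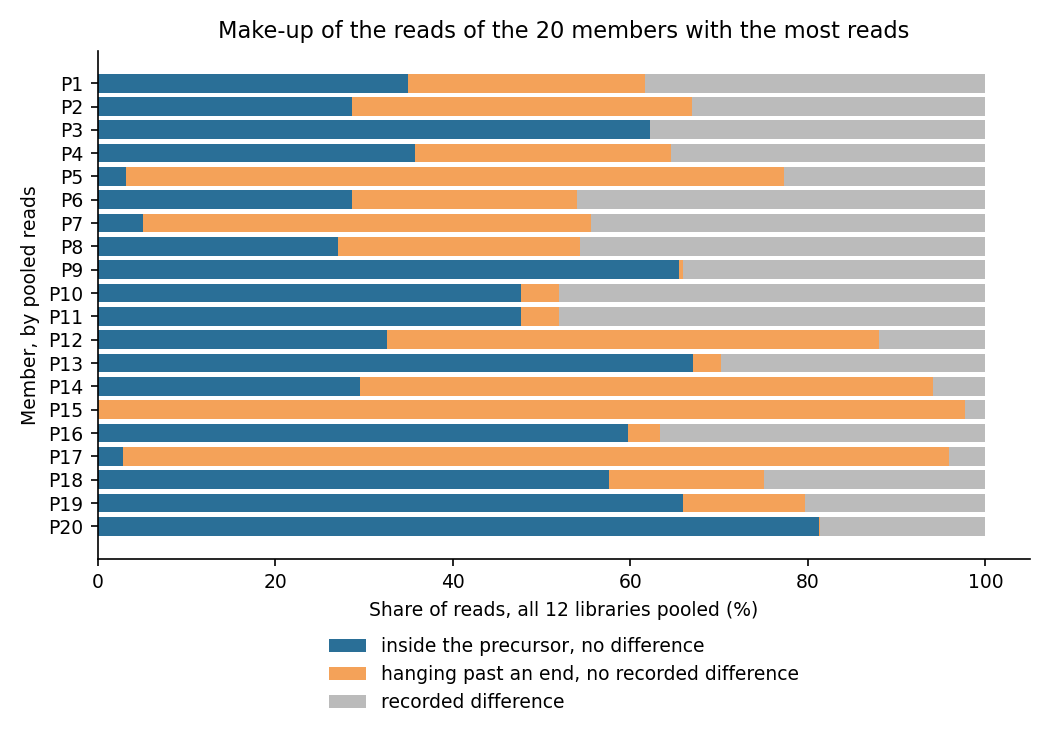
Horizontal bars give, for each of the 20 members with the most reads, the share of pooled reads (percent) inside the precursor without a difference, hanging past an end without a recorded difference, and with a recorded difference. P5, P15 and P17 consist almost wholly of hanging reads among those without a difference, whereas P3, P9 and P20 have nearly none.

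Among the large members, hanging reads made up 97.7% of P15, 93.05% of P17, 74.1% of P5, 64.6% of P14 and 55.5% of P12, but 0.00373% of P3 and 0.0193% of P20. Leading reads of 3 members show the bases involved, in capitals.
P5: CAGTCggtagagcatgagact
P7: CTcgcgtcggggtcggggc
P30: ACGGCtgtctctccag
P30 had the largest share of hanging reads, 99.04%. Some of these reads could be placed whole in a known transcript: 98.2% of the hanging reads of P23 (Scarna17, a Cajal body RNA) lay in a GENCODE transcript, as did 91.4% of those of P14. Over all members 22.1% of the hanging reads did. P17, P51, P5 and P7 stood at the other end, with at most 0.0948%. Library by library, the hanging share of member reads was 25.7 to 30.3% in model and 25.7 to 30.7% in Keluoxin libraries, and the groups overlapped.

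Near the limit of 50%, P26 (49.1% differing), P49 and P50 (both 48.7%) were just inside, and 3 predicted precursors with 50.95, 50.96 and 51.5% were just outside. Near the limit of 200 reads, P85, P84 and P83 held 203, 213 and 223 reads, and the 3 precursors just outside held 184, 187 and 193.

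Members were shorter and folded less stably than annotated precursors. The median precursor length was 57 for the members, 60 for the other predicted precursors and 84 for the annotated ones, in nt, over precursors with at least 200 reads, and 30 members against 0 annotated precursors were under 50 nt. The minimum free energy of folding, computed with RNAfold, had medians of -15.7 for the members, -16.4 for the other predicted precursors and -36.6 for the annotated ones, in kcal/mol. This energy depends on length. Divided by precursor length, the medians were -0.305 for the members, -0.280 for the other predicted precursors and -0.430 for the annotated ones, in kcal/mol per nt. A single stem was predicted for 82 of 85 members, 193 of 204 other predicted and 376 of 394 annotated precursors.

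Most members' reads were shorter than mature miRNAs. The median over precursors of the mean read length was 17.4 for the members, 17.7 for the other predicted precursors and 21.5 for the annotated ones, in nt. The most frequent length lay in the 20 to 24 nt of mature miRNAs for 15 of 85 members (17.6%), 46 of 204 other predicted (22.5%) and 341 of 394 annotated precursors (86.5%), and it was under 18 nt for 57 members. Since the inserts were selected at 15 nt and above and the shortest read in the tables has 15 nt, fragments below that were not seen. Among the large members, P3 (23 nt, 98.5% of its reads at 20 to 24 nt) and P17 (22 nt, 94.97%) had miRNA lengths. P13, the nucleolar RNA, peaked at 20 nt with 58.7%. P1 peaked at 18 nt, P2 at 17 nt and P5, P8, P9, P12, P15, P16 and P20 at the 15-nt limit of the tables. The longest peak length, 25 nt, was that of P33 and of the nucleolar RNA P63.

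Start precision, the share of a precursor's reads on its larger arm that begin at the most used position, is given as a median over precursors. It was 54.8 for the members, 65.1 for the other predicted precursors and 98.3 for the annotated ones, in percent. A share of at least 90% was reached by 11 members (12.9%), 65 other predicted (31.9%) and 286 annotated precursors (72.6%). Both a peak at 20 to 24 nt and such a start were found in 7 members: P3, P17, P32, P49, P50, P51 and P79. The leading reads of the first 6 match known miRNAs, in P17 and P51 in all but the last base, which hangs past the precursor's end. P79 carries reads of mt-Nd4l, a mitochondrial message. The 5S members ranged from 50.7% (P1) to 82.3% (P20). P5 had no dominant start: its 4 most used positions took 28.95, 22.03, 20.97 and 19.8% of its reads, all before the precursor's first base. P33 had the lowest start precision, 18.6%.

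**Figure D2:**
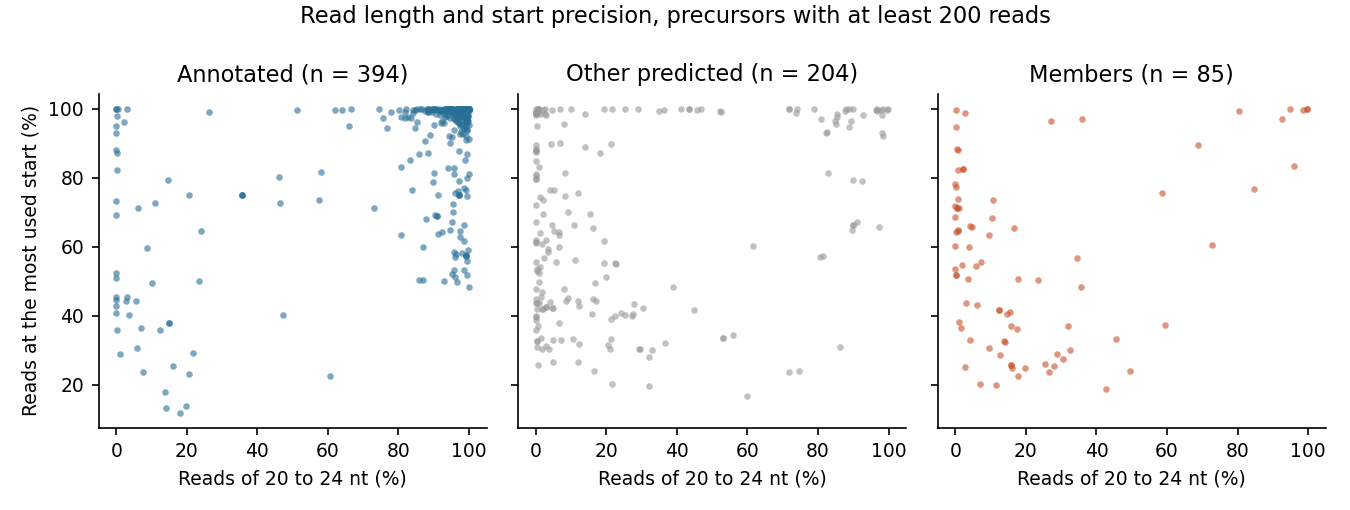
Each point is a precursor with at least 200 reads, in 3 panels for annotated, other predicted and member precursors; the x axis is the share of reads of 20 to 24 nt and the y axis the share at the most used start, both in percent. Annotated precursors gather in the upper right corner (medians 96.3 and 98.3%), whereas the members spread over the left side (medians 12.4 and 54.8%).

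The members' reads seldom came from both arms. The larger arm held 100% of the reads in 43 of 85 members, 123 of 204 other predicted and 62 of 394 annotated precursors. The smaller arm held 5% or more in 6 members, namely P9, P10, P11, P13, P18 and P40, against 18 of 204 other predicted and 132 of 394 annotated precursors. The 5p arm was the larger one in 47 members. In P9 to P11 the 5p reads were grouped by the B2 run and the 3p reads by the miR-690 run, although both arms lie on the same short precursor. The sequences of P10 and P11 do not hold the miR-690 run, so their 3p reads with that run do not match them exactly. The larger arm held 56.7% in P9 and 54.7% in P10 and P11.

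Levels were then compared between the groups per arm, with reads shared by several precursors divided equally among them and arms with the same reads joined. This gave 116 member arms. Of these 83, from 82 members, had enough reads to be tested among 797 arms of all precursors, and P83, P84 and P85 had none. By edgeR's quasi-likelihood test at an adjusted p of 0.05, 11 member arms (13.3%) were higher and 6 (7.23%) lower in Keluoxin than in model libraries. Over all arms tested the shares were 9.41% higher and 8.41% lower (17.8% in either direction), so the members' shares were near the background. The arms of other predicted precursors stood at 20.2% higher and 4.93% lower. The median log2 change was 0.35 over the member arms tested, 0.80 over arms of other predicted precursors and 0.03 over all arms. All Keluoxin libraries were above all model libraries in 6 member arms and below them in 5, where 3.89% and 4.27% of all arms were so separated. Without model replicate 1, 24 member arms were higher and 6 lower. The higher arms numbered 6 without model replicate 4 or 5 or without Keluoxin replicate 4 or 6, and 7 without Keluoxin replicate 3 or 5.

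The B2 family made up most of the arms that rose: 7 of its 8 tested arms were higher, none was lower, and the median log2 change was 2.26. Over all arms 9.41% were higher and the median log2 change was 0.03. Among arms of other predicted precursors these values were 20.2% and 0.80. P57-5p stood at 0, 0.788 and 1.495 CPM in the model libraries (lowest, median, highest) and 3.05, 9.94 and 14.3 in the Keluoxin libraries (log2 change 3.63 ± 0.64 (SE), edgeR adjusted p = 0.00577), and P38/P39-3p, 1 joint arm, at 1.21, 4.28 and 25.8 CPM in the model libraries (lowest, median, highest) and 37.9, 61.5 and 145 in the Keluoxin libraries (log2 change 3.26 ± 0.71 (SE), edgeR adjusted p = 0.0115). In both, every Keluoxin library was above every model library. P57-5p may have met the limits on reads only through the Keluoxin libraries. Its call and its place among the 7 are therefore only a description. P43-5p was at 0.674, 2.002 and 10.8 CPM in model against 12.6, 17.6 and 45.1 CPM in Keluoxin (same order; log2 change 2.74 ± 0.67 (SE), edgeR adjusted p = 0.0188) and P40-5p at 0.27, 1.45 and 3.52 CPM in model against 5.701, 8.56 and 12.6 CPM in Keluoxin (log2 change 2.38 ± 0.52 (SE), edgeR adjusted p = 0.0115), again without overlap. With counts per whole precursor in place of arms, the log2 change of P40-5p was 2.04 and did not pass (edgeR adjusted p = 0.0699).

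P9/P10/P11-5p, P27-5p and P48-5p rose too, with adjusted p of 0.0368, 0.0368 and 0.035 by edgeR, but their groups overlapped: model replicate 1 lay among the Keluoxin libraries in all 3, and model replicate 6 in P9/P10/P11-5p. P9/P10/P11-5p was at 17.3, 41.2 and 181 CPM in model against 119, 241 and 425 CPM in Keluoxin (log2 change 1.89 ± 0.56 (SE), edgeR adjusted p = 0.0368). P27-5p was at 2.22, 3.87 and 21.1 CPM in model against 15.7, 17.96 and 46.8 CPM in Keluoxin (log2 change 1.92 ± 0.57 (SE), edgeR adjusted p = 0.0368), and P48-5p at 0.539, 2.76 and 10.3 CPM in model against 6.27, 12.7 and 22.8 CPM in Keluoxin (log2 change 1.93 ± 0.56 (SE), edgeR adjusted p = 0.035). By edgeR the first call was lost without any one of model replicate 2, 3, 4 or 5 or Keluoxin replicate 1, 2, 3, 4 or 5 (highest adjusted p 0.0818), the second without any one of model replicate 2, 3, 4, 5 or 6 or Keluoxin replicate 2, 3, 4, 5 or 6 (highest adjusted p 0.0818) and the third without any one of model replicate 2, 4, 5 or 6 or Keluoxin replicate 1, 3, 4, 5 or 6 (highest adjusted p 0.0802). With counts per whole precursor, the log2 change of P48-5p was 1.81 and did not pass (edgeR adjusted p = 0.0516). For P9/P10/P11-5p that count covers P10 and P11 without P9, and its log2 change was 1.25 and did not pass (edgeR adjusted p = 0.0585). P25-5p, the eighth arm of the family, did not pass, at 1.99, 4.41 and 32.3 CPM in model against 12.9, 29.4 and 80.7 CPM in Keluoxin (log2 change 2.13 ± 0.71 (SE), edgeR adjusted p = 0.0594). These arms share sequence, so they are not independent of each other. Whether they are independent of the arms of the miR-690 family was not tested. Summed over all member reads with the run, the level was 159 ± 181 RPM (reads scaled to the library's total as CPM are, without TMM) in model libraries and 754 ± 349 RPM in Keluoxin ones (SD, 6 libraries each), with model replicate 1 at 520.2 and the other model libraries at 40.7 to 143.

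In the miR-690 family 2 of 8 tested arms were higher, none was lower, and the median log2 change was 0.34, where 9.41% of all arms were higher. P4-3p stood at 84.1, 300.3 and 1049 CPM in the model libraries (lowest, median, highest) and 1112, 1520.3 and 1773 in the Keluoxin libraries (log2 change 1.93 ± 0.47 (SE), edgeR adjusted p = 0.0188). Its groups did not overlap, model replicate 1 being the highest model library. P9-3p was at 14.4, 44.7 and 161 CPM in model against 115, 197 and 269 CPM in Keluoxin (log2 change 1.70 ± 0.48 (SE), edgeR adjusted p = 0.0302), with model replicate 1 above the lowest Keluoxin library, and this edgeR call was lost without any one of model replicate 2, 4, 5 or 6 or Keluoxin replicate 1, 3, 4 or 6 (highest adjusted p 0.0696). The other arms of the family did not pass: P14-5p was at 63.2, 185 and 450.0 CPM in model against 120.5, 217 and 309.9 CPM in Keluoxin (log2 change -0.03 ± 0.41 (SE), edgeR adjusted p = 0.961), and P18-5p at 27.6, 64.1 and 142 CPM in model against 41.01, 79.2 and 119 CPM in Keluoxin (log2 change 0.06 ± 0.39 (SE), edgeR adjusted p = 0.913). P10/P11-3p was at 23.1, 60.02 and 147 CPM in model against 112, 158 and 229.8 CPM in Keluoxin (log2 change 1.04 ± 0.40 (SE), edgeR adjusted p = 0.0884). The arms that passed and those that did not share the run but end and start at other bases, and the difference between them was not tested.

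Of the 5 tested 5S arms 1 was higher and none lower, with a median log2 change of 1.08, where 9.41% of all arms were higher. P2-3p stood at 446, 1229.8 and 3690.3 CPM in the model libraries (lowest, median, highest) and 3812, 5399 and 7489.8 in the Keluoxin libraries (log2 change 1.72 ± 0.46 (SE), edgeR adjusted p = 0.0264), with all Keluoxin above all model libraries. P1-3p, the arm with the most reads of all members, did not pass, at 2231, 5439.8 and 14782 CPM in model against 11145, 16139 and 22094 CPM in Keluoxin (log2 change 1.17 ± 0.40 (SE), edgeR adjusted p = 0.0629). P12-3p (log2 change 1.08 ± 0.37 (SE), edgeR adjusted p = 0.0616) and P20-3p (log2 change 0.89 ± 0.38 (SE), edgeR adjusted p = 0.125) did not pass either. The 5S run taken over all member reads was at 8405 ± 5902 RPM in model and 19677 ± 4970.3 in Keluoxin libraries (SD, 6 libraries each). Model replicate 1, at 18245, lay inside the Keluoxin range of 13706 to 24817. The edgeR call of P2-3p was lost without model replicate 4 or 5 or Keluoxin replicate 5 or 6 (highest adjusted p 0.0598).

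P41-3p overlaps no family and showed the largest log2 change and the least even one. Its reads match Gm42418, which is long non-coding by its GENCODE gene type only. Whether that gene holds ribosomal sequence was not tested. It stood at 0.27, 1.09 and 9.84 CPM in the model libraries (lowest, median, highest) and 1.67, 24.9 and 305 in the Keluoxin libraries (log2 change 4.70 ± 1.33 (SE), edgeR adjusted p = 0.0318). Keluoxin replicate 4 alone held the highest value, and the next library was at 33.6 CPM. Without Keluoxin replicate 4 the log2 change was 2.80 and did not pass, and the edgeR call was lost without any one of model replicate 2, 3, 4, 5 or 6 or Keluoxin replicate 4 or 6 (highest adjusted p 0.0832). That library also held the highest summed level of 3 muscle miRNAs (miR-1a-3p, miR-133a-3p and miR-206-3p), 1887 CPM against 282 to 429 CPM in the other 11. The 3 erythroid miRNAs (miR-451a, miR-144-3p and miR-486a-5p) summed to 85.5 to 106 CPM in model and 82.5 to 793 CPM in Keluoxin libraries, with miR-144-3p at 0 in 1 model library. The part of these markers in the members' levels was not tested.

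**Figure D3:**
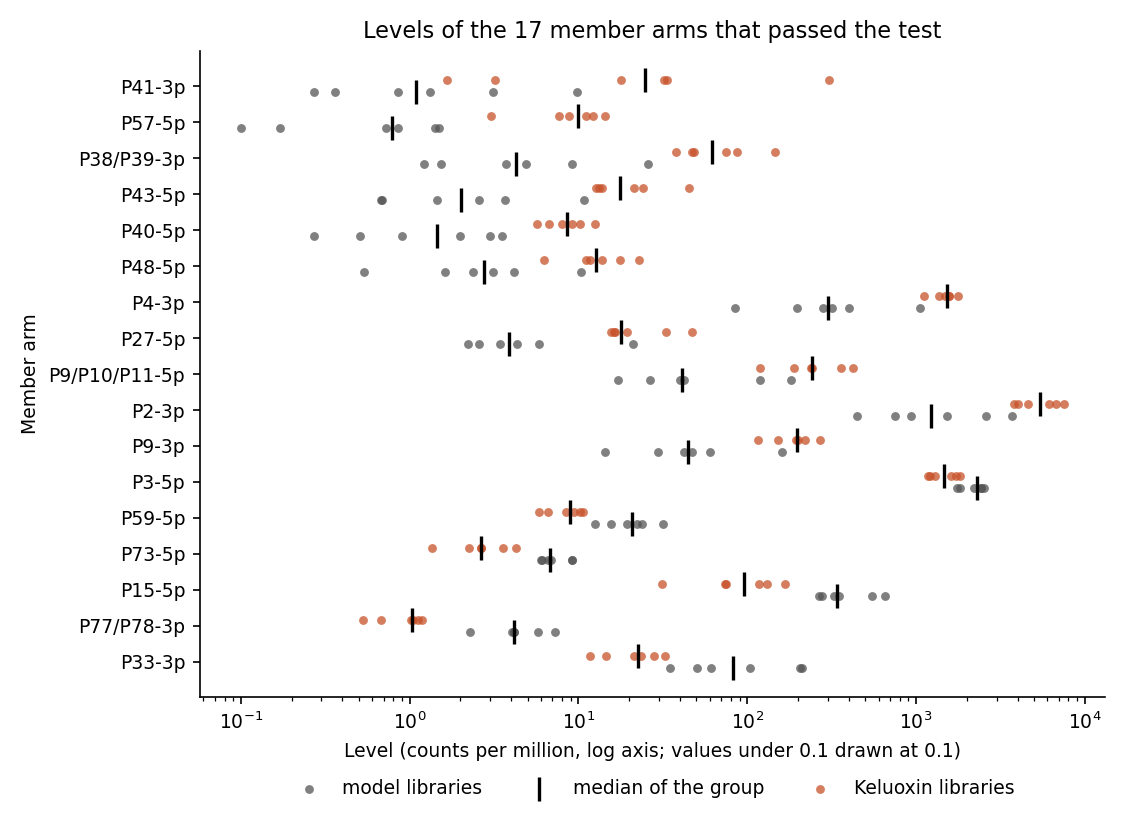
Points give the level in CPM (log axis) of each of the 17 member arms that passed the test, in 6 model and 6 Keluoxin libraries, with a bar at each group's median; arms are ordered by log2 change. In the upper 11 arms the Keluoxin medians lie to the right, with overlap in P9-3p, P48-5p, P27-5p, P9/P10/P11-5p and P41-3p, and in the lower 6 they lie to the left, with overlap in P3-5p.

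None of the 6 arms that fell belongs to the B2, miR-690 or 5S families. P15-5p, with reads of a mitochondrial serine tRNA, stood at 267, 339 and 657 CPM in the model libraries (lowest, median, highest) and 31.5, 95.8 and 167 in the Keluoxin libraries (log2 change -2.03 ± 0.38 (SE), edgeR adjusted p = 0.00704). P33-3p, from Gm22574, was at 34.98, 82.5 and 211 CPM in model against 11.8, 22.4 and 32.4 CPM in Keluoxin (log2 change -2.34 ± 0.47 (SE), edgeR adjusted p = 0.00879). In both, every Keluoxin library lay below every model library. Of the other mitochondrial tRNA members, P6-5p (mt-Ty) did not pass, at 735, 1441 and 3305 CPM in model against 834, 1595 and 1939 CPM in Keluoxin (log2 change -0.18 ± 0.38 (SE), edgeR adjusted p = 0.752). Over the 6 tested arms of this class 1 fell and none rose. Over the 14 arms classed by gene type as small nuclear or nucleolar RNA none passed in either direction. P33-3p is outside that class, since Gm22574 has another gene type. Of all arms tested 9.41% were higher and 8.41% lower.

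P73 and the pair P77 and P78 both fell and share sequence. The leading reads of these members and of P83, which was too rare to be tested, hold the same 13 bases, ctgagactgtggg.
P73: CAgtgtctgagactgtggg
P77: gtgtctgagactgtggg
P83: gtgtctgagactgtggg
The leading reads matched no transcript, and the run was in the sequence of 4 members (P73, P77, P78 and P83), of 0 other predicted and of 0 annotated precursors. P77/P78-3p stood at 2.28, 4.15 and 7.27 CPM in the model libraries (lowest, median, highest) and 0.531, 1.03 and 1.19 in the Keluoxin libraries (log2 change -2.24 ± 0.30 (SE), edgeR adjusted p = 0.00186), and P73-5p at 5.98, 6.75 and 9.203 CPM in model against 1.36, 2.65 and 4.25 CPM in Keluoxin (log2 change -1.42 ± 0.26 (SE), edgeR adjusted p = 0.00704). Neither showed overlap between the groups, but both rest on few reads and, sharing sequence, are not independent. Both may have met the limits on reads only through the model libraries. Summed over all member reads with the run, the level was 6.27 ± 3.68 RPM in model and 2.00 ± 0.761 RPM in Keluoxin libraries (SD, 6 libraries each). There the groups overlapped: model replicate 6, at 2.36, lay inside the Keluoxin range of 0.978 to 2.75. P59-5p, which matched no transcript, fell from a median of 20.9 to 8.92 CPM (range 12.5 to 31.6 in model, 5.85 to 10.7 in Keluoxin; log2 change -1.28 ± 0.25 (SE), edgeR adjusted p = 0.00717), also without overlap. Counting only exact reads wholly inside the precursor, its log2 change was -0.73 and did not pass (edgeR adjusted p = 0.197).

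P3-5p, the member with miR-103-3p reads, fell least. It was at 1753, 2310.5 and 2538 CPM in the model libraries (lowest, median, highest) and 1170.5, 1456 and 1813 in the Keluoxin libraries, with overlapping groups (log2 change -0.58 ± 0.15 (SE), edgeR adjusted p = 0.0211), and its adjusted p without Keluoxin replicate 6 was 0.052. Since its reads also match the annotated miR-103 precursors, this is the level of an equal part of those reads. P17, P32, P49, P50 and P51, whose leading reads match other known miRNAs wholly or in all but the last base, did not pass: P17-3p was at 90.9, 162 and 203 CPM in model against 133, 175 and 207 CPM in Keluoxin (log2 change 0.13 ± 0.19 (SE), edgeR adjusted p = 0.636), P32-5p at 33.5, 40.7 and 60.8 CPM in model against 32.5, 40.6 and 45.7 CPM in Keluoxin (log2 change -0.12 ± 0.16 (SE), edgeR adjusted p = 0.59), P49/P50-3p at 13.4, 15.7 and 20.9 CPM in model against 11.6, 13.9 and 16.7 CPM in Keluoxin (log2 change -0.25 ± 0.17 (SE), edgeR adjusted p = 0.299) and P51-3p at 15.2, 19.4 and 23.1 CPM in model against 19.7, 24.9 and 26.8 CPM in Keluoxin (log2 change 0.35 ± 0.15 (SE), edgeR adjusted p = 0.129).

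Large members without a call are given by their ranges. P5-5p, the fifth largest, lay between 1094 and 2533 CPM in model and between 1144 and 1944 in Keluoxin (log2 change -0.06 ± 0.20 (SE), edgeR adjusted p = 0.844). P7-5p was at 218, 898 and 2337 CPM in model against 463, 1053 and 2297 CPM in Keluoxin (log2 change 0.23 ± 0.55 (SE), edgeR adjusted p = 0.79). P8-5p, whose reads match Lars2, AA474408 and Gm15564, lay at 8.77, 174 and 597 CPM in model against 65.9, 782 and 3659.8 CPM in Keluoxin (log2 change 2.26 ± 1.05 (SE), edgeR adjusted p = 0.149). Whether the parts of these genes that its reads match are ribosomal sequence was not tested. P13-3p was at 26.5, 377 and 672 CPM in model against 216, 364 and 457 CPM in Keluoxin (log2 change -0.04 ± 0.56 (SE), edgeR adjusted p = 0.961), P16-5p (the small nuclear RNA model Gm22951) at 87.7, 318 and 1119 CPM in model against 114, 228 and 324 CPM in Keluoxin (log2 change -0.83 ± 0.51 (SE), edgeR adjusted p = 0.254) and P19-5p at 26.4, 57.5 and 105 CPM in model against 51.2, 75.3 and 127 CPM in Keluoxin (log2 change 0.43 ± 0.33 (SE), edgeR adjusted p = 0.346). The groups overlapped in all 6. Over the 66 member arms that did not pass, the log2 change ranged from -1.23 (P1-5p) to 2.26 (P8-5p).

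Read lengths pooled over the members are described per library. Reads of 20 to 24 nt made up 25.2, 35.6 and 48.8% of member reads in model (lowest, median, highest) and 20.4, 23.3 and 28.9% in Keluoxin libraries. Reads of 15 to 17 nt made up 22.9 to 34.8% and 32.5 to 42.3%, and reads of 30 nt or more 2.09 to 5.02% and 0.235 to 2.904%. The groups overlapped in all 3 ranges, and these values, being sums over the members, carry no test. The mean length of a member read was 20.04 ± 0.451 nt in model and 18.9 ± 0.412 nt in Keluoxin (SD, 6 libraries each). P3 alone accounted for 78.9% of the member reads of 23 nt and 44.9% of those of 20 to 24 nt.

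**Figure D4:**
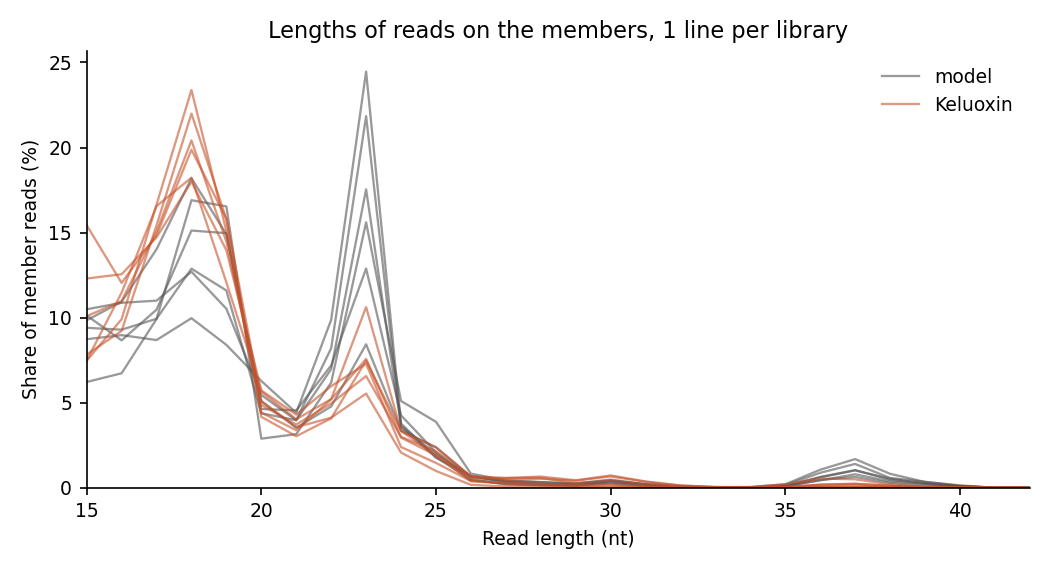
Lines give the share of member reads (percent) at each read length in nt, 1 line per library, grey for model and orange for Keluoxin. Peaks stand at 18 nt and 23 nt; the 23-nt peak is taller in most model libraries, and in a low hump the share at 37 nt is higher in every model library than in any Keluoxin library.

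Within single arms, mean read length shifted in 3 member arms towards longer and in 3 towards shorter reads of 40 tested, by limma at an adjusted p of 0.05 over 404 arms. Among all arms 5.94% were longer and 3.22% shorter in Keluoxin (9.16% in either direction). P10/P11-3p, placed in the miR-690 family by its reads and not by its precursors' sequence, moved most among those that passed, at 20.9, 21.9 and 23.7 nt in model against 18.8, 19.4 and 20.9 nt in Keluoxin (difference -2.48 ± 0.51 nt (SE), limma adjusted p = 0.0159). P1-3p shortened, 19.3, 19.7 and 20.02 nt in model against 18.6, 19.02 and 19.4 nt in Keluoxin (difference -0.68 ± 0.17 nt (SE), limma adjusted p = 0.0336), and P8-5p fell by 0.47 nt (adjusted p = 0.0336). P17-3p, with miR-146b-5p-like reads, lengthened: 21.1, 21.2 and 21.4 nt in model against 21.4, 21.6 and 21.6 nt in Keluoxin (difference 0.29 ± 0.05 nt (SE), limma adjusted p = 0.0084). P45-5p, with miR-182-5p-like reads, lengthened by 0.87 nt (adjusted p = 0.0295) and P20-3p by 0.21 nt (adjusted p = 0.0477), both by limma. Counting only reads without a recorded difference, the shift of P1-3p changed sign, to 0.0725 nt (limma adjusted p = 0.311). P17-3p and P10/P11-3p passed whichever library was left out, by limma. P1-3p missed the threshold without any one of model replicate 2, 3 or 4 or Keluoxin replicate 1, 2 or 6 (highest adjusted p 0.0799) and P8-5p without any one of model replicate 2, 3 or 5 or Keluoxin replicate 1, 5 or 6 (highest adjusted p 0.0731). P45-5p missed it without any one of model replicate 2, 3 or 5 or Keluoxin replicate 1, 3, 5 or 6 (highest adjusted p 0.0684), and P20-3p without any one of model replicate 1, 2, 3, 4, 5 or 6 or Keluoxin replicate 1, 2, 3 or 5 (highest adjusted p 0.0992).

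Start precision moved in 3 member arms up and in 4 down of 40 tested (limma, adjusted over 404 arms). Over all arms 2.48% went up and 1.73% down (4.21% in either direction). P7-5p, which lies in the untranslated part of Jmjd6 (chr11:116843197-116843235, minus strand, GRCm38) but whose leading read hangs over its 5′ end, fell most. Its most used start took 56.1, 66.8 and 73.8% in the model libraries (lowest, median, highest) and 30.3, 36.7 and 50.99 in the Keluoxin libraries (difference -28.88 ± 3.83 points (SE), limma adjusted p = 0.00591), with no overlap between the groups. P36-5p (mt-Tp) fell as well, 54.1, 65.3 and 71.8% in model against 38.6, 47.1 and 49.8% in Keluoxin (difference -17.28 ± 3.30 points (SE), limma adjusted p = 0.0214), as did P5-5p, 31.3, 34.2 and 39.2% in model against 14.8, 22.9 and 28.4% in Keluoxin (difference -12.11 ± 2.27 points (SE), limma adjusted p = 0.0214). In P36-5p and P5-5p, too, every Keluoxin library was below every model library. P20-3p fell by 8.53 points (limma adjusted p = 0.0492).

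The 3 arms whose reads gathered more at 1 start were P4-3p, P10/P11-3p and P8-5p. P4-3p was at 27.9, 42.8 and 63.5% in model against 62.02, 68.4 and 77.7% in Keluoxin (difference 25.08 ± 5.48 points (SE), limma adjusted p = 0.0346). P10/P11-3p was at 28.3, 51.6 and 61.9% in model against 61.8, 72.4 and 81.1% in Keluoxin (difference 24.71 ± 5.62 points (SE), limma adjusted p = 0.0383), and P8-5p at 37.3, 51.3 and 60% in model against 63.8, 66.5 and 70% in Keluoxin (difference 17.10 ± 3.66 points (SE), limma adjusted p = 0.0346). The groups overlapped in P4-3p and P10/P11-3p through their highest model library and did not in P8-5p. With the replicate number as a block only 1 of the 7 start calls passed, that of P7-5p. P7-5p also passed whichever library was left out. By limma P5-5p missed without model replicate 3 or 5 (highest adjusted p 0.0518), and P36-5p without model replicate 3 or Keluoxin replicate 3 (highest adjusted p 0.0541). P8-5p missed without any one of model replicate 5 or 6 or Keluoxin replicate 1, 2, 3, 4, 5 or 6 (highest adjusted p 0.0838) and P4-3p without any one of model replicate 2, 3, 5 or 6 or Keluoxin replicate 1, 2, 3, 5 or 6 (highest adjusted p 0.0885). P10/P11-3p missed without any one of model replicate 2, 3, 5 or 6 or Keluoxin replicate 1, 2, 3, 4 or 6 (highest adjusted p 0.0982), and P20-3p without any one of model replicate 2, 3, 4, 5 or 6 or Keluoxin replicate 1, 2, 3, 4 or 6 (highest adjusted p 0.125).

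Arm balance, log2 of 5p over 3p reads, shifted in 2 of 9 members tested, both towards 3p, where 7.83% of 166 precursors shifted towards 3p and 6.02% towards 5p (13.9% in either direction). P1 was at -4.45, -3.302 and -2.77 in model against -7.605, -6.4 and -4.95 in Keluoxin (difference -3.001 ± 0.45 (SE), limma adjusted p = 0.00163), without overlap. The 5p reads of P1 are long: 90.7% of them run to the last 2 bases of the precursor or past it, so they span both sides of its 36 nt. Reads of 30 nt or more made up 6.09, 10.6 and 15.6% of P1 in model and 0.493, 2.31 and 5.16% in Keluoxin libraries. P15 was at 4.899, 6.501 and 7.69 in model against 1.74, 3.75 and 4.88 in Keluoxin (difference -2.81 ± 0.57 (SE), limma adjusted p = 0.00794). Its 5p reads fell while its 3p arm, at 3.13, 6.75 and 11.5 CPM in model against 5.82, 12.1 and 16.3 CPM in Keluoxin, did not pass (log2 change 0.71 ± 0.38 (SE), edgeR adjusted p = 0.194). The next smallest p belonged to P10 and P11 as 1 unit, at -0.902, -0.679 and 0.337 in model against -1.23, 0.197 and 1.68 in Keluoxin, which did not pass (difference 0.79 ± 0.41 (SE), limma adjusted p = 0.213). P9, a unit of its own here, did not pass either (difference 0.57 ± 0.41 (SE), limma adjusted p = 0.356). The shifts of P1 and P15 passed whichever library was left out.

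**Figure D5:**
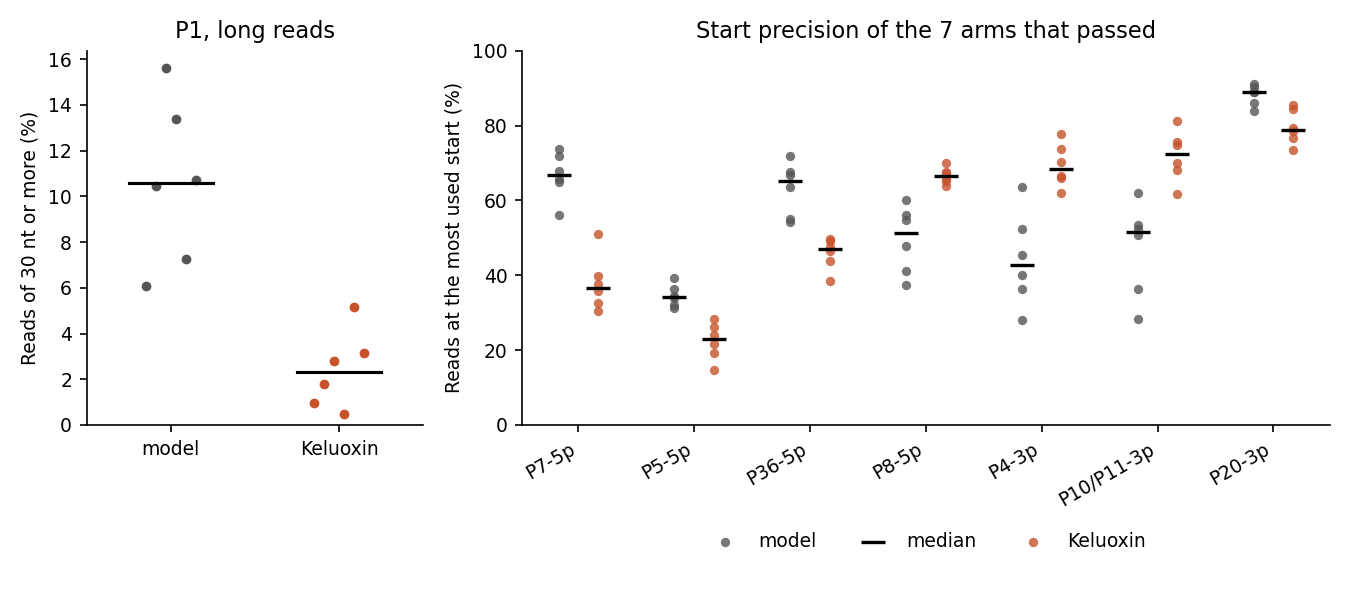
The left panel gives the share (percent) of P1 reads of 30 nt or more in each of 6 model and 6 Keluoxin libraries, with the median as a line; the right panel gives the share (percent) of reads at the most used start for the 7 member arms that passed, 1 point per library, with medians. All Keluoxin points are below all model points for P1, and for P7-5p, P5-5p and P36-5p.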

How the data were processed

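Small RNA libraries of 12 samples, 6 model and 6 Keluoxin, were used. Per the labels' protocols the NEBNext small RNA kit was applied to 1 µg of RNA, with selection at 15 to 35 nt. Among the tools in the submitters' processing notes are Bowtie, Novoalign, cutadapt and bcl2fastq. The genome build was not given in the sources used here. The deposited counts are whole, not normalized reads of sequences with at least 2 reads, divided by the authors among the precursors a sequence matches; the undivided count in the tag name was used. Deposited positions carry an offset of 5. The other deposited columns (lengths, positions, differences) were read as they stand.

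Reads were assigned to an arm by the side of the precursor's middle, arms sharing at least 90% of reads were joined, and shared reads were divided equally. Levels were tested with edgeR 4.0.16 (R 4.3.3; TMM, filterByExpr, quasi-likelihood test) on 797 arms, and CPM are counts over TMM-scaled totals. The SE of an edgeR log2 change was derived from the test, as the size of the change over the square root of its F statistic. Length and start (at least 50 reads in every library) and arm balance (arms of 10 reads or more in 6 libraries, pseudocount 0.5) were tested with limma 3.58.1, and DESeq2 1.42.0 was an alternative. All p-values were Benjamini-Hochberg adjusted over all arms at 0.05. On simulated counts for the level comparison (780 arms), 10.4%, 35.8% and 89.4% of arms changed 1.5-, 2- and 4-fold were recovered, and 2 unchanged arms were called. The simulation gave all arms the same dispersion and held no outlying library, so these values need not hold for the real libraries. Precursors were folded with RNAfold 2.7.2 and matched to GENCODE M21. Replicate numbers of the 2 groups did not pair the samples.

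Named in the text are the 20 members with the most reads, every called arm, the 3 smallest p of the length, start and arm fits and the neighbours of each limit; the 4 families and further members, named for what their reads match, were added after the reads were seen. The members and lists were chosen with earlier results of these data known. No sequence is printed for 10 members, and some items are not reported here.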

Additional observations from a re-analysis of the deposited data

Results flagged for a closer look

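Single libraries far from the other 5 of their group were looked for in 76 groups of values (the gap to the nearest library against the group's range, at Dixon's limit for 6 samples), and 10 were found, where chance gives about 1 in 20 groups. In 7 of them model replicate 1 was the high library, always in an arm that was higher in Keluoxin, and since the arms of a family share reads these are not independent. In the miR-690 family it was at 1049 CPM where the other 5 lay between 84.1 and 398 for P4-3p and at 160.5 CPM where the other 5 lay between 14.4 and 60.5 for P9-3p. In the B2 family it was at 25.8 CPM where the other 5 lay between 1.21 and 9.14 for P38/P39-3p and at 21.1 CPM where the other 5 lay between 2.22 and 5.81 for P27-5p. It was at 10.8 CPM where the other 5 lay between 0.674 and 3.65 for P43-5p and at 10.3 CPM where the other 5 lay between 0.539 and 4.15 for P48-5p. For P41-3p it was at 9.84 CPM where the other 5 lay between 0.27 and 3.13. Model replicate 1 also had the largest share of reads on members in its group, 3.98%. Keluoxin replicate 4 stood at 305 CPM where the other 5 lay between 1.67 and 33.6 for P41-3p, and Keluoxin replicate 3 at 45.1 CPM where the other 5 lay between 12.6 and 24.1 for P43-5p. The mean read length of P45-5p in model replicate 4 was 16.2 nt against 15.2 to 15.5 nt in the other 5. The causes were not tested.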

How the results depend on the processing

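The count of member arms higher in Keluoxin was 11, and it was 18 with DESeq2 and 17 with only reads without a recorded difference; leaving out 1 library at a time gave 6 to 24. The lower count was 6, and 2 with only exact reads wholly inside the precursor, a setting added after seeing the data that left 13 of the 17 called arms testable; leaving out 1 library gave 5 to 7. The 6 arms with a shifted length became 1 with only reads without a recorded difference, where 3 of the 6 could be tested, and 2 to 9 leaving out 1 library. The 7 with a shifted start became 4 with only such reads, where 5 of the 7 could be tested, and 2 to 9 leaving out 1 library. The 2 shifted arm balances were 2 under all settings, and the difference in the share of reads on members, 1.88 percentage points, was 1.68 to 2.22 leaving out 1 library. Only the length of P1-3p turned direction, to 0.0725 nt (limma adjusted p = 0.311), with only reads without a recorded difference. The cause was not tested.

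Replicate numbers of the 2 groups correlated between 0.0427 and 0.244, and 2 of the 12 libraries correlated best with their own number, so samples share only a number. With the replicate number as a block, 15 arms were higher, 6 lower, 7 shifted in length, 1 in start and 2 in arm balance, and the level calls of P27-5p, P41-3p and P9/P10/P11-5p were lost. With counts per whole precursor those of P40-5p, P48-5p and P9/P10/P11-5p (there P10 and P11 without P9) were lost, and with only exact reads wholly inside the precursor that of P59-5p. Upper-quartile scaling moved the median log2 change of all arms to -0.21 and total-read scaling to 0.21, with the 17 called arms called under both. Arms under a few CPM (P57-5p, P77/P78-3p, P73-5p) rest on few reads, and the depth of Keluoxin replicate 5 was the lowest.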
